A study of Mus musculus with 6 samples.

Results

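Kupffer cells are the resident macrophages of the liver sinusoids, and the 10 genes described here are transcripts commonly used to recognise them: Marco, Timd4, Cd5l, Clec4f, Vsig4, Adgre1, Csf1r, C1qa, C1qb and C1qc. They were taken as every probe set on the array whose platform gene symbol is exactly one of these names, which gave 15 probe sets of the 34945 with a single symbol, for 10 of 18193 genes. RNA was measured in whole liver from SRC-2 null and wild-type mice, with 3 arrays for each genotype. All animals were females on a C57 background, ovariectomized at 6 weeks of age and killed 2 weeks later under Avertin anesthesia, so both genotypes share the loss of ovarian hormones. SRC-2 is the coactivator encoded by Ncoa2. The labels do not describe the null allele, do not say whether it was deleted in all cells, and do not say whether arrays came from separate animals, so the spread behind each p-value may be technical rather than between animals.

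Kupffer cells depend on signals through the CSF1 receptor, take up particles and dying cells from portal blood, and carry receptors for bacteria, phosphatidylserine and complement. Of the 10 genes, Clec4f, Timd4, Vsig4, Marco and Cd5l are in mouse liver mostly products of Kupffer cells, whereas Adgre1, Csf1r and the C1q genes are shared with other macrophages. In bulk liver, fewer cells of a type and less RNA per cell cannot be told apart.

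Marco had the largest change of the 10 genes, and C1qb and C1qc lie beside each other, with C1qa, in 1 cluster on chromosome 4, where no other protein-coding gene stands between them in RefSeq (GRCm38.p6). For that reason the bases before the start of these genes are shown, 5′ to 3′ on the strand of the gene, from RefSeq (GRCm38.p6). Marco is at chr1:120505025-120505274, C1qb at chr4:136886201-136886450 and C1qc at chr4:136892915-136893164, all on the minus strand. Capitals mark matches to GAGGAA or its reverse complement TTCCTC, a core that the macrophage factor PU.1 can bind.
Marco: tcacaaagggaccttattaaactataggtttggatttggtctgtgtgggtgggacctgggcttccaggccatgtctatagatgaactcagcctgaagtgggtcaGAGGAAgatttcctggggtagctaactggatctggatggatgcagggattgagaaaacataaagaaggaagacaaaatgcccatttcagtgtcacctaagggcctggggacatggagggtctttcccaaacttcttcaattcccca
C1qb: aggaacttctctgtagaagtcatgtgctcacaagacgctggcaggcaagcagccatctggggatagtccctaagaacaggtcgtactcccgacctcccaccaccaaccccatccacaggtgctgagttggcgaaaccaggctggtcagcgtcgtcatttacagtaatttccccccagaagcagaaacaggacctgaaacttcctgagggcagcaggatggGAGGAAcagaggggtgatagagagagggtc
C1qc: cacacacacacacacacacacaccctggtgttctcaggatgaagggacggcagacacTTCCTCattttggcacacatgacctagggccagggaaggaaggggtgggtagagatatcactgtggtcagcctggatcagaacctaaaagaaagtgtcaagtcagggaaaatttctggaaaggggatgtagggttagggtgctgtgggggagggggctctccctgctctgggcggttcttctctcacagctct
The match in Marco begins 146 bases before the start, that in C1qb 30 bases before it and that in C1qc, on the opposite strand, 193 bases before it. Promoters of 7 of the 10 genes were found in the table, by symbol, and 5 of these 7 held GAGGAA on either strand within 250 bases, Cd5l and Vsig4 being the others. Among all 32851 promoters of the same length, 23.3% held it. TGANTCA, a core of AP-1 sites searched on both strands, was in 0 of the 7 and in 6.75% of all promoters. A match describes these letters only.

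All 10 genes were lower in SRC-2 null liver, by 1.75-fold to 5.10-fold, and none was higher (limma, 0 higher at an unadjusted p under 0.05). Their median log2 fold change was -1.08, a 2.11-fold lower level, against a median of 0.00 over all 11894 genes tested. Over all genes tested, 3.13% were called lower and 1.55% higher at a Benjamini-Hochberg adjusted p under 0.05, the threshold used throughout. With the replicate number as a block 307 of all genes were higher and 525 lower, against 184 and 372 without it. Of the 10 genes 0 were higher in either fit. At an unadjusted p under 0.05, 9.58% of all genes tested were lower and 7.58% higher. In each of the 10 genes the 3 SRC-2 null arrays lay below the 3 wild-type arrays, which was the case for 12.5% of all genes tested. Between the highest SRC-2 null array and the lowest wild-type array the gap ran from 0.57 log2 units in Vsig4 to 2.18 in Marco. Of the 10 genes, 6 were at least 2-fold lower, as were, with a call, 0.698% of all genes tested. Timd4 is in these counts and in the median, although its SRC-2 null mean lay below the filter on dim genes given below. The counts and the median with Timd4 are therefore a description only. With the filter 1 log2 unit higher, which leaves Timd4 out, 9 of 9 genes tested were called lower. Their median log2 fold change was -1.01.

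**Figure D1:**
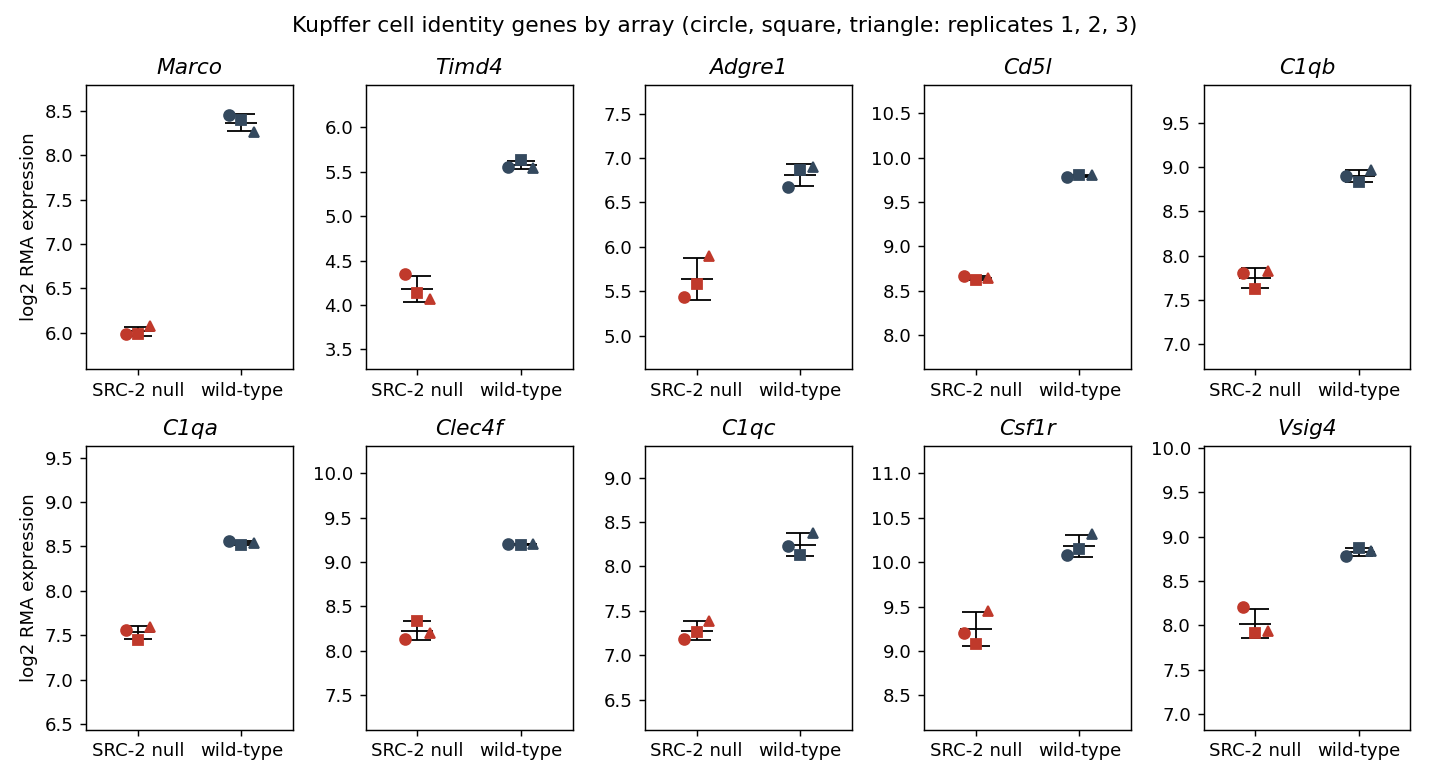
Log2 RMA expression of each of the 10 genes on the 3 SRC-2 null arrays (red, left) and the 3 wild-type arrays (dark, right), with mean and SD as bars and replicate numbers as symbols, all panels spanning the same number of log2 units. The groups do not overlap in any panel, and the distance between them is widest for Marco.

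The values are log2 expression from robust multi-array average (RMA), made by the authors. The level of 1 probe set cannot be set against that of another, and the number of arrays limits the precision. All 10 genes and all 15 probe sets passed the filter on dim genes, a mean over the 6 arrays of at least 4.21, the median of all probe sets. Timd4 had a SRC-2 null mean below that value and passed through its wild-type arrays. Alb, the albumin gene of hepatocytes, averaged 14.41 ± 0.05 in SRC-2 null and 14.44 ± 0.02 in wild-type liver (SD, n = 3 each). Array medians were between 4.17 and 4.24. The targeted gene read 5.60, 5.44 and 5.86 on the SRC-2 null arrays, against 7.74, 7.92 and 8.53 on the wild-type arrays, with the Ncoa2 probe set 1435233_at. Probe set 1435234_at of Ncoa2 averaged 4.19 ± 0.13 in SRC-2 null and 6.36 ± 0.21 in wild-type liver (SD, n = 3 each). The genotypes overlapped in 2 further sets, 1446827_at and 1450458_at (log2 fold changes 0.07 and -0.27, limma adjusted p = 0.902 and 0.617), and the labels do not say which part of the gene was deleted. Replicate 3 of both genotypes stood apart from replicates 1 and 2, as described with the processing, so differences within replicate numbers are given too.

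Marco, Timd4 and Cd5l recognise bacteria, dying cells and lipid debris. Marco, a scavenger receptor with a collagen-like stalk, read 5.99, 5.99 and 6.08 on the SRC-2 null arrays, against 8.45, 8.39 and 8.26 on the wild-type arrays. Its mean was 6.02 ± 0.05 in SRC-2 null and 8.37 ± 0.10 in wild-type liver (SD, n = 3 each), a log2 fold change of -2.35 (95% interval -2.55 to -2.15, limma adjusted p = 4.19e-06). Of the genes tested, 10 fell further, and this was the largest measured of the 10 changes described here.

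Timd4, the phosphatidylserine receptor TIM-4, which tethers dying cells, read 4.34, 4.13 and 4.06 in SRC-2 null liver, against 5.56, 5.63 and 5.54 in wild-type liver. The log2 fold change was -1.40 (95% interval -1.62 to -1.18, limma adjusted p = 0.000126). Low RMA values hold mostly background, so this fall of 2.63-fold can be understated. Cd5l, a secreted protein of macrophages with scavenger receptor domains, read 8.67, 8.62 and 8.64 in SRC-2 null liver, against 9.78, 9.80 and 9.80 in wild-type liver. Its arrays spread less than those of the other 9 genes in SRC-2 null liver, and it fell 2.22-fold (log2 fold change -1.15, SE 0.07, limma adjusted p = 8.64e-05).

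Clec4f, Vsig4 and Adgre1 are surface proteins used to stain Kupffer cells. Clec4f, a C-type lectin that binds galactose-bearing sugars, read 8.13, 8.34 and 8.20 in SRC-2 null liver, against 9.20, 9.19 and 9.20 in wild-type liver. It fell 1.97-fold (log2 fold change -0.98, 95% interval -1.17 to -0.78, limma adjusted p = 0.000464). Its SRC-2 null arrays had an SD of 0.11 and its wild-type arrays one of 0.01 (n = 3 each).

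Vsig4, a receptor for complement C3 fragments, had the smallest change of the 10 genes. It read 8.21, 7.91 and 7.94 in SRC-2 null liver, against 8.79, 8.87 and 8.84 in wild-type liver, with SRC-2 null replicate 1 above the other 2. The log2 fold change was -0.81 (95% interval -1.04 to -0.58, limma adjusted p = 0.0029), or 1.75-fold lower. Adgre1, the adhesion receptor F4/80, read 5.43, 5.59 and 5.89 in SRC-2 null liver, against 6.67, 6.87 and 6.89 in wild-type liver. With an SD of 0.23 it had the widest spread of the 10 genes among SRC-2 null arrays, and it fell 2.26-fold (log2 fold change -1.18, SE 0.13, limma adjusted p = 0.00152).

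Csf1r encodes the receptor for CSF1 and IL-34, which macrophages need to survive. It read 9.20, 9.08 and 9.45 in SRC-2 null liver, against 10.08, 10.15 and 10.31 in wild-type liver. Replicate 3 was the highest array in both genotypes. The fall was 1.91-fold (log2 fold change -0.94, 95% interval -1.20 to -0.67, limma adjusted p = 0.00305).

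C1qa, C1qb and C1qc encode the 3 chains of C1q, the recognition unit of the classical complement pathway, which in liver is made by macrophages rather than hepatocytes. C1qa read 7.56, 7.45 and 7.59 in SRC-2 null liver, against 8.56, 8.52 and 8.54 in wild-type liver. C1qb read 7.80, 7.62 and 7.82 in SRC-2 null liver, against 8.90, 8.83 and 8.97 in wild-type liver. C1qc read 7.18, 7.26 and 7.39 in SRC-2 null liver, against 8.23, 8.12 and 8.38 in wild-type liver. The falls were 2.01-fold for C1qa, 2.21-fold for C1qb and 1.95-fold for C1qc, all lower in SRC-2 null (limma adjusted p = 0.000271, 0.000271 and 0.00106). For C1qa and C1qb, replicate 2 was the lowest array of each genotype.

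Marco, C1qb and Csf1r have several probe sets, and each probe set was also tested on its own among 19623. All 15 were lower in SRC-2 null liver, against 1.79% of all probe sets tested, and in all 15 the 3 SRC-2 null arrays lay below the 3 wild-type arrays, against 10.8%. Both counts include the probe set of Timd4, so they are a description only. With the filter 1 log2 unit higher, which leaves Timd4 out, 14 were called lower. The second Marco probe set, 1458297_s_at, read 5.77, 4.95 and 4.97 in SRC-2 null liver, against 7.04, 7.35 and 6.60 in wild-type liver (log2 fold change -1.77, limma adjusted p = 0.0154). Its arrays spread more than those of 1449498_at, with SDs of 0.47 and 0.38, and its call was lost without SRC-2 null replicate 2, wild-type replicate 1 or wild-type replicate 2 (limma adjusted p = 0.0776, 0.0714 and 0.0653).

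The further C1qb probe sets, 1437726_x_at and 1434366_x_at, had log2 fold changes of -0.96 and -0.87, and their endings mark sets that can detect related transcripts. For Csf1r, 1419873_s_at had a log2 fold change of -0.97 and 1423593_a_at one of -0.64. The lower value of 1423593_a_at came with an adjusted p of 0.0147 in limma, and its call was lost without SRC-2 null replicate 1, wild-type replicate 1 or wild-type replicate 2 (limma adjusted p = 0.0699, 0.0757 and 0.0808). Among all probe sets, 1419872_at of Csf1r lost its call without SRC-2 null replicate 1 and Vsig4 without wild-type replicate 2 (limma adjusted p = 0.0515 and 0.0517).

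**Figure D2:**
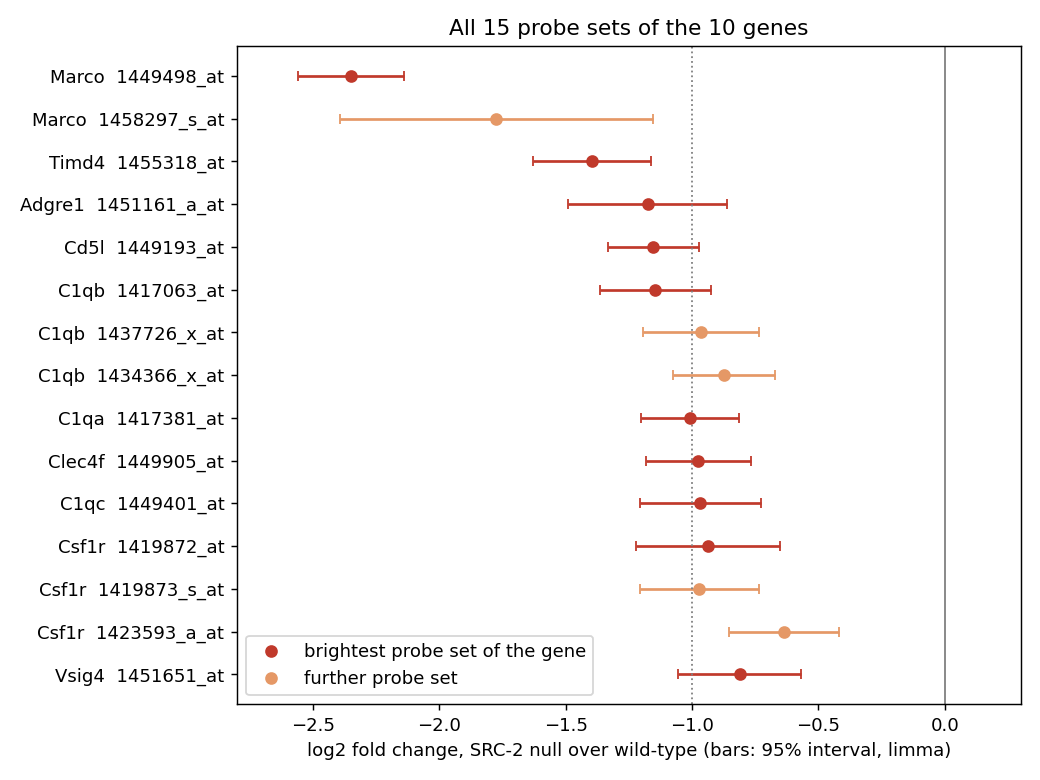
Log2 fold change (SRC-2 null over wild-type, horizontal axis) of all 15 probe sets with 95% intervals from limma, grouped by gene, the brightest probe set of a gene in red and further ones in orange. All intervals lie below 0, and the dotted line marks a change of 2-fold.

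Within each replicate number all 10 genes were lower in SRC-2 null than in wild-type liver. That follows from the groups not overlapping, so the sign is no further check and only the sizes are informative. The median difference was -1.08 in replicate 1, -1.13 in replicate 2 and -1.001 in replicate 3, against medians of 0.00 over all genes tested in each. Marco differed by -2.46, -2.41 and -2.18 in replicates 1, 2 and 3. Vsig4 differed by -0.57, -0.96 and -0.90. With replicates 1 and 2 of both genotypes only, all 10 genes were still called lower, with limma adjusted p-values of at most 0.0451.

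**Figure D3:**
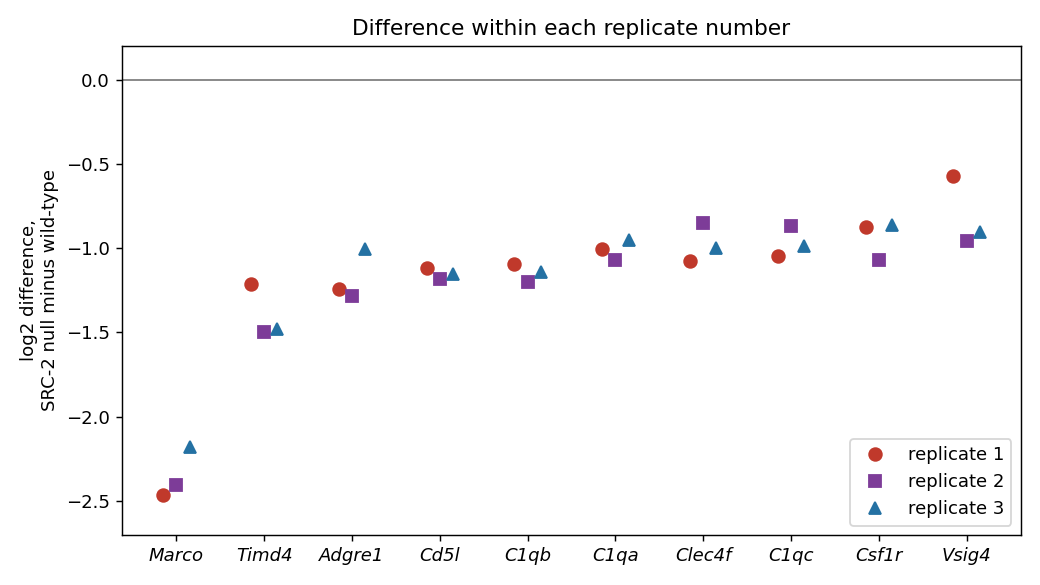
Log2 difference between SRC-2 null and wild-type liver (vertical axis) within replicates 1, 2 and 3, for the 10 genes ordered by their mean change. All 30 points lie below 0, as they must where the groups do not overlap. The 3 of Marco lie below those of every other gene.

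Ordered by size with the brightest probe set of each gene, the changes ran Marco, Timd4, Adgre1, Cd5l, C1qb, C1qa, Clec4f, C1qc, Csf1r and Vsig4. Whether 2 genes changed by different amounts was looked at through the difference of their log2 values on each array, for all 45 pairs, in an exact permutation test over the 20 splits of the arrays (two-sided). The smallest p such a test can give is 0.1, or 0.188 after Benjamini-Hochberg adjustment over the pairs, so no pair could pass. Timd4 in SRC-2 null liver lies below the filter, so its place in the order is not settled and its pairs are left out of what follows. In all 8 remaining pairs with Marco the SRC-2 null arrays lay apart from the wild-type arrays. Marco fell by 1.17 log2 units more than Adgre1 and by 1.54 more than Vsig4. Of the 28 pairs with neither Marco nor Timd4, 8 lay apart. The share of pairs lying apart over all genes was not computed, and pairs share genes, so counts of pairs are a description only. Of the 8 pairs of neighbours in the order, 2 lay apart, Marco with Adgre1 and C1qb with C1qa. The other 6 did not differ beyond their spread. The larger fall of C1qb holds for its brightest probe set only (log2 fold change -1.15, against -1.01 for C1qa). Its further sets, 1437726_x_at and 1434366_x_at, fell by less than C1qa (-0.96 and -0.87).

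Other genes of Kupffer cells were called lower in part. Of 14 such genes, 7 were lower in SRC-2 null liver, 7 were not called and 0 were higher (limma, 0 at an unadjusted p under 0.05), with a median log2 fold change of -0.48. Fcna, ficolin A, fell 1.66-fold and Il18bp, a decoy for interleukin-18, 1.64-fold. Slc11a1, a metal transporter of phagosomes, fell 1.74-fold and Slc40a1, the iron exporter ferroportin, 1.46-fold. The 7 not called included Clec1b and Hmox1, with log2 fold changes of -0.53 and -0.35. The others were Kcna2, Spic, Siglec1, Id3 and Nr1h3, with -0.04, -0.01, 0.03, 0.04 and 0.07. Spic lay just above the filter in both genotypes, so its value cannot show whether it changed. The number called lower was between 2 and 5 without 1 array, and it was 2 without wild-type replicate 2, 3 without SRC-2 null replicate 2 and 4 without wild-type replicate 1. Slc11a1 lost its call without SRC-2 null replicate 2 or wild-type replicate 2, and Slc40a1 also lost it with the mean of its probe sets.

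Of 19 genes tested in the pan-macrophage and myeloid list, 14 were lower and 0 higher (limma, 0 at an unadjusted p under 0.05), with a median log2 fold change of -0.88. The lysosomal protease gene Ctss fell 2.27-fold, the lysozyme gene Lyz2 1.92-fold, the pore-forming protein gene Mpeg1 1.84-fold and the lysosomal protein gene Cd68 1.76-fold. The count was 10 without SRC-2 null replicate 1 and 11 to 13 without any other array. Fcgr1, an IgG receptor that was tested and not called, had a SRC-2 null mean below the filter and passed through its wild-type arrays. The remaining gene of the list, Itgam, lay below the filter.

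Ligands and transcription factors of macrophages did not pass the test. Of 12 genes tested, 0 were called in limma, with 3 lower and 1 higher at an unadjusted p under 0.05 (9.58% and 7.58% of all genes tested), and the median log2 fold change was 0.06. Spi1, which encodes PU.1, had a log2 fold change of -0.38 (adjusted p = 0.248 in limma), Irf8, a factor of myeloid cells, -0.43 (adjusted p = 0.287), and Zeb2, a factor of macrophage identity, 0.32 (adjusted p = 0.168). Cebpb, a factor of hepatocytes and myeloid cells, had -0.54 (adjusted p = 0.153), and with the replicate number as a block its adjusted p was 0.0197. Id3, Nr1h3 and Spic, factors tied to Kupffer cells and named after their values were seen, had 0.04, 0.07 and -0.01. Spic averaged 4.28 in SRC-2 null and 4.29 in wild-type liver, just above the filter. Low RMA values hold mostly background, so its value cannot show whether Spic changed. Hepatocytes also make Nr1h3 (LXR alpha). Il34, the second ligand of the CSF1 receptor, lay below the filter.

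Signals of the Kupffer cell niche were near 0 as a list, with a median of -0.02 over 10 genes. In limma 2 were lower and 2 higher at an unadjusted p under 0.05 (9.58% and 7.58% of all genes tested). Of the 10, Tgfbr2, a receptor for TGF-beta, was 1.54-fold higher (limma adjusted p = 0.0294). Its call was lost without any of the 3 SRC-2 null arrays, wild-type replicate 1 or wild-type replicate 2. With the mean of its probe sets the call was lost too. The Notch ligand gene Dll4 had a log2 fold change of 0.46 (adjusted p = 0.2, and 0.0334 with the replicate block). Notch1 and Notch2, Notch receptors, had -0.38 and -0.31 (adjusted p = 0.143 and 0.233), the first with 0.0353 as its adjusted p with the replicate block.

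Partners and receptors of C1q were not called. Of 10 tested, 0 were called in limma, with 3 lower and 1 higher at an unadjusted p under 0.05 (9.58% and 7.58% of all genes tested), and the median log2 fold change was -0.11. C1ra and C1s1, the proteases bound to C1q, had log2 fold changes of -0.27 and -0.35 (adjusted p = 0.106 and 0.0934). C1s1 passed with the replicate block (adjusted p = 0.0435). Both passed with replicate 3 against replicates 1 and 2 as a block (limma adjusted p = 0.0471 and 0.027). In that fit 607 of all genes tested were called lower. Both also passed with the alternative variance model. Lrp1, a receptor of endocytosis, had -0.27 (adjusted p = 0.197) and Cd93, a membrane protein of endothelium and myeloid cells, 0.29 (adjusted p = 0.184).

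Of 16 other receptors and bridging proteins for scavenging and dying cells, 4 were lower and 1 higher, with a median log2 fold change of -0.11. Mertk, a receptor tyrosine kinase for dying cells, fell 1.45-fold, Scarb1, the lipoprotein receptor of hepatocytes, 1.47-fold, and Cd163, the haptoglobin-hemoglobin receptor, 1.34-fold. Cd36, a fatty acid and lipoprotein receptor, rose 1.64-fold. Each of these 5 calls, that of Axl included (1.46-fold lower), was lost in some fits without 1 array. The number lower was 0 without wild-type replicate 2, when Cd36 lost its call too, 1 without wild-type replicate 1, SRC-2 null replicate 1 or SRC-2 null replicate 2, and 2 without either replicate 3. With the replicate block Axl had an adjusted p of 0.0519, and Pros1, a bridging protein named after its value was seen, was called higher (log2 fold change 0.37, adjusted p = 0.0662 without and 0.0433 with the block).

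**Figure D4:**
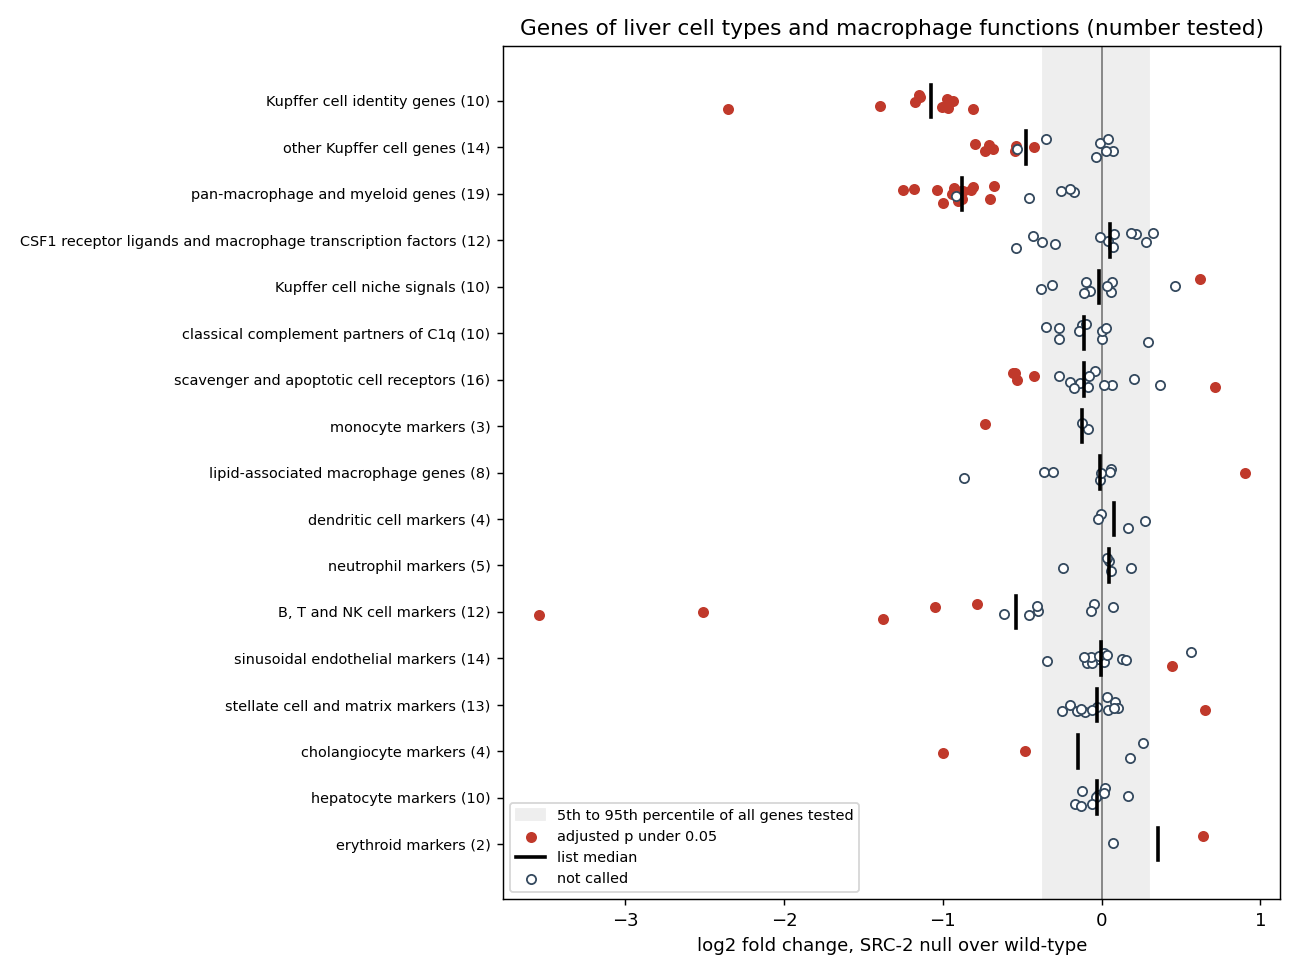
Log2 fold change (SRC-2 null over wild-type, horizontal axis) of each gene tested in 17 lists, with called genes filled, genes not called open, list medians as black bars and the 5th to 95th percentile of all genes tested as a grey band. The 10 Kupffer cell identity genes all lie left of the band, as do most pan-macrophage genes, whereas endothelial, stellate and hepatocyte markers centre on 0.

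Relatives and partners of the 10 genes were set beside them in 4 pairs chosen after their values were seen, which fixes the direction of the differences, so they are given as a description with no test. Msr1, another class A scavenger receptor, had a log2 fold change of -0.20 (limma adjusted p = 0.527), and Marco fell by 2.15 log2 units more. Relative to Clec4g, a lectin of sinusoidal endothelium with a log2 fold change of -0.09, Clec4f fell by 0.89 more. C1qa fell by 0.74 more than C1ra, and Csf1r by 1.01 more than its ligand gene Csf1, which had 0.08.

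Markers of other leukocytes moved in part. Of 12 B, T and NK cell markers tested, 5 were lower and 0 higher (limma, 0 at an unadjusted p under 0.05), with a median of -0.54. Ighm and Jchain, which encode the IgM heavy chain and the joining chain of antibodies, fell 11.7-fold and 5.69-fold, Mzb1, a secretion factor of plasma cells, 2.59-fold, and the chemokine gene Ccl5 2.07-fold. Nkg7, the other gene called, and Cd79a and Cd3d, which were not called, had SRC-2 null means below the filter and passed through their wild-type arrays, so the count and median of this list are a description only. The T cell markers Cd3e, Cd4 and Cd8a, named after their values were seen, had log2 fold changes of -0.05, -0.07 and 0.07. Cd3d, also a T cell marker, had -0.40 (limma adjusted p = 0.109, and 0.0329 with the replicate block). The sum of linear RMA values of that list took in all 14 genes with a probe set, those below the filter included. It was 471 to 538 on the SRC-2 null arrays and 2041 to 2444 on the wild-type arrays. Ighm and Jchain alone made up 150 to 183 of it on the SRC-2 null arrays and 1569 to 1931 on the wild-type arrays, and without them the sum was 315 to 355 on the SRC-2 null arrays and 472 to 513 on the wild-type arrays. The sum over the 10 Kupffer cell identity genes was 2151 to 2371 on the SRC-2 null arrays and 4648 to 4887 on the wild-type arrays. As levels of different probe sets cannot be set against each other, these sums and their parts are a description only. With replicate 3 against replicates 1 and 2 as a block, 8 of the 12 were called lower. In that fit 607 of the 11894 genes tested were called lower, against 372 without the block. Ms4a1 and Ncr1, markers of B and NK cells, lay below the filter. The part of these cells in the results for the 10 genes was not tested.

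Monocyte, dendritic and neutrophil markers were mostly dim. Of 3 monocyte markers tested, Plac8 fell 1.66-fold, while Ccr2, the chemokine receptor of inflammatory monocytes, and Ifitm6 had log2 fold changes of -0.09 and -0.13. Cx3cr1, Chil3, S100a4 and F13a1 lay below the filter. None of 4 dendritic cell markers was called in limma (1 higher at an unadjusted p under 0.05), and none of 5 neutrophil markers (0 at that level). Of 8 genes linked to lipid-associated macrophages, 1 was higher, Lpl, lipoprotein lipase (1.87-fold), and 0 lower, with 3 lower at an unadjusted p under 0.05 in limma (9.58% of all genes tested). With replicate 3 against replicates 1 and 2 as a block, 3 were called lower, in a fit that called 607 of all 11894 genes tested lower, against 372 without the block. Fabp5, a fatty acid binding protein gene, had a log2 fold change of -0.86 (adjusted p = 0.144, and 0.00294 with the replicate block). Trem2 and Gpnmb, receptors of such cells, had 0.06 and 0.05 and were named after their values were seen.

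Markers of sinusoidal endothelium, stellate cells and hepatocytes gave list medians near 0. The 14 sinusoidal endothelial markers had a median log2 fold change of 0.00, and their summed linear level was 2015 to 2305 on the SRC-2 null arrays and 2001 to 2243 on the wild-type arrays. The 13 stellate cell and matrix markers had a median of -0.03 and the 10 hepatocyte markers one of -0.03, and of the hepatocyte markers none was called in limma (0 at an unadjusted p under 0.05). Flt1 and Rgs5, of endothelium and pericytes, were called higher, and the call of Flt1 was lost in every fit without 1 array and that of Rgs5 with the mean of its probe sets. Lyve1, a hyaluronan receptor of sinusoidal endothelium, had a log2 fold change of 0.56 (limma adjusted p = 0.0663, and 0.0144 with the replicate block). Of 4 cholangiocyte markers, with a median log2 fold change of -0.15, Cd24a and Krt19 fell 2.00-fold and 1.40-fold, whereas Epcam and Sox9 had log2 fold changes of 0.26 and 0.18 (limma adjusted p = 0.269 and 0.437). Of 2 erythroid markers, with a median of 0.35, Alas2 rose 1.55-fold and Slc4a1 had a log2 fold change of 0.07 (limma adjusted p = 0.79). Krt19 lost its call without SRC-2 null replicate 1 or wild-type replicate 2, and both Krt19 and Alas2 lost theirs with replicates 1 and 2 only.

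Over the 6 arrays, the genes outside the 10 whose values ran most like the mean of their standardised values were H2-Ab1, a class II histocompatibility gene, Fos, a subunit of AP-1, Cnmd, the chondromodulin gene, and the antibody genes Igkv8-30 and Ighm. Pearson's r was 0.9995 for H2-Ab1 and Fos, 0.9994 for Cnmd and Igkv8-30 and 0.9989 for Ighm, and 313 of the 11884 genes compared had an r above 0.95. These arrays share the genotype split, and any gene that is evenly lower on all SRC-2 null arrays scores high. Cnmd had a SRC-2 null mean of 3.42, below the filter, and passed through its wild-type arrays, so its place here is a description only. H2-Ab1 fell 3.45-fold, to a mean of 6.15 ± 0.12 in SRC-2 null liver, against 7.93 ± 0.05 in wild-type liver (SD, n = 3 each).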

How the data were processed

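Biotin-labelled total RNA from flash-frozen liver was hybridised, per the labels' protocols, to oligonucleotide arrays. The authors deposited log2 expression values, 1 column per array, made with RMA per the submitters' processing notes. No version, chip description or build is given there (not given in the sources used here). RMA pools a set's probes after background correction and quantile normalization, which compresses folds near the low end.

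Groups and replicate numbers came from the labels. Gene names came from the platform annotation, which can be old, and all 10 genes matched RefSeq (GRCm38.p6) by gene number. Of 45101 probe sets, 64 were controls, 34945 others had 1 symbol, 932 several and 9160 none. For each gene the probe set with the highest mean was kept, and 11894 genes with a mean of at least 4.21 were tested with limma 3.58.1 in R 4.3.3 (lmFit and eBayes, two-sided, genotype as the only term, Benjamini-Hochberg adjustment over all genes). Single probe sets were tested likewise among 19623. The procedure was tested on simulated data.

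Deviations from the genotype means correlated over all genes tested at 0.18, 0.20 and 0.52 between arrays of the same number 1, 2 and 3. Numbers 1 and 2 correlated across each other too (0.17 and 0.21), and replicate 3 ran against both (-0.27 to -0.34). Deviations within a genotype cancel out, so these signs are tied to each other. The values set replicate 3 apart but do not match numbers 1 and 2 singly across genotypes. As an alternative, the numbers were still treated as pairs in a fit with a replicate block. Replicate 3 was set against replicates 1 and 2 as a block in another. What arrays of the same number share is not in the labels. Other alternatives left out each array, changed the filter, the probe set rule, the array scaling or the variance model.

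The members and gene lists were chosen with earlier results of these data known. Named were the 10 genes, Ncoa2, up to 4 genes per list with the smallest p, and the 5 genes most like the 10. All other genes named were chosen after their values were seen. Some genes stand in several lists.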

Additional observations from a re-analysis of the deposited data

How the results depend on the processing

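The 10 Kupffer cell identity genes stayed lower and called in all 149 values from 15 alternatives, Timd4 having no value under the filter set 1 log2 unit higher. The largest adjusted p among them was 0.0451, for Vsig4 with replicates 1 and 2 of both genotypes only. The replicate block changed no call of the 10 genes, with a median log2 fold change of -1.08 and 10 lower. Without 1 array the median was between -1.10 and -1.05, 10 genes stayed lower and between 12 and 15 of the 15 probe sets were called lower. The number of all genes called, 556, was between 275 and 438 without 1 array, with 65 to 174 higher and 210 to 315 lower. With the replicate block 832 genes were called, 307 higher and 525 lower, against 184 higher and 372 lower without it. With replicate 3 against replicates 1 and 2 as a block 982 were called, 375 higher and 607 lower, and with replicates 1 and 2 only 329, 95 higher and 234 lower. The cause of these shifts was not tested. Timd4 in SRC-2 null liver lies near background, which limits its fold.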
